A study of Mus musculus with 12 samples.

Results

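Kdm6a, Ddx3x, Eif2s3x and Utp14a are 4 X-linked genes known to escape X inactivation in the mouse, which means that the otherwise silent chromosome goes on making some of their RNA. They were taken by name from a table of allelic ratios, in which they are 4 of 243 genes, or 4 of 242 without Xist. X inactivation in female mammals begins when the long noncoding RNA Xist spreads along one X chromosome (the inactive X, Xi) and recruits factors that silence its genes, while the other chromosome (Xa) stays active. Escape genes are a minority of X-linked genes and many of them have a partner on the Y chromosome. Kdm6a encodes a demethylase of histone H3 lysine 27, Ddx3x an RNA helicase of the DEAD-box family, and Eif2s3x the gamma subunit of translation initiation factor eIF2. These have the Y-linked partners Uty, Ddx3y and Eif2s3y. Utp14a encodes a protein needed for processing of ribosomal RNA in the nucleolus and has no Y-linked partner.

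To follow silencing, chromatin-associated RNA, which is mostly nascent, was sequenced (ChrRNA-seq) from XX mouse embryonic stem cells. These feeder-dependent cells descend from a hybrid of the 129 and Cast strains, and the 129 copy of Xist is driven by a TetOn promoter, so that doxycycline silences the 129 X chromosome. The value for each gene and library is the allelic ratio Xi/(Xi + Xa), the share of allele-specific reads that come from the 129 chromosome, so 0.5 is equal RNA from both alleles. A ratio carries no amount of RNA. A lower one can come from fewer cells that use the 129 allele, from less of its RNA per cell or from more Cast RNA, and these cannot be told apart in bulk RNA. The table holds X-linked ratios only, so cell type markers were not checked here.

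There were 6 clones, and each gave 1 NoDox library and 1 library with doxycycline added for 24 h (Dox 24 h, 1.0 µg/mL), 12 libraries in all. Clone 2B is labelled wild type (WT) for Xist, although in the study's account of the lines its Cast allele, which is not induced, carries the exon 7 deletion. Clones 3B and 4E lack 153 bp of the m6A region of Xist exon 7, in that account on both alleles. Clones 6F and 11C lack 355 bp of the m6A region of exon 1, and clone 7E lacks both regions, on the 129 allele in 6F and 7E (the allele in 11C is not given in the sources used here). Each genotype thus rests on 1 or 2 clones, and p-values measure the spread between these clones.

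Some libraries stood apart before any gene was compared. In NoDox the median ratio over 242 genes lay between 0.506 and 0.519 in 5 clones and was 0.796 in 4E. In the 6F library at Dox 24 h, 17 genes had no 129 share at all (ratio 0), and each other clone had at most 2 such genes. None of the 4 escape genes had a ratio of 0 or 1 in any library (count 0). Xist itself was read from the 129 allele at a ratio of 0.911 or more in all 12 libraries. The median change over genes, Dox 24 h minus NoDox, ran from -0.225 in 6F to -0.0842 in 7E.

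All 4 genes are protein coding in the GENCODE M21 annotation, and their positions are given on chromosome X of mm10. Ddx3x spans 13281022 to 13293983 and Kdm6a 18162667 to 18279358, both on the plus strand. Utp14a spans 48256934 to 48282449 on the plus strand, and Eif2s3x 94188709 to 94212651 on the minus strand. Eif2s3x is the nearest to Xist at 9.25 Mb, followed by Utp14a at 55.2 Mb, Kdm6a at 85.2 Mb and Ddx3x at 90.2 Mb. GENCODE places no other gene on the same strand within any of the 4 spans (count 0). On the opposite strand, the lincRNA gene 9530027J09Rik overlaps Utp14a, and the authors counted reads by strand.

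The promoters of the 4 genes are shown as background on their sequence. They are the 250 bases before the RefSeq start of each gene (GRCm38.p6, the assembly of mm10), written 5′ to 3′ along the gene's strand, and capitals mark motif matches on either strand. They are of the reference strain, and the 129 and Cast bases may differ. The regions are chrX:18162325-18162574 (plus strand), chrX:13280772-13281021 (plus strand), chrX:94212652-94212901 (minus strand) and chrX:48256684-48256933 (plus strand), in the order of the lines.
Kdm6a: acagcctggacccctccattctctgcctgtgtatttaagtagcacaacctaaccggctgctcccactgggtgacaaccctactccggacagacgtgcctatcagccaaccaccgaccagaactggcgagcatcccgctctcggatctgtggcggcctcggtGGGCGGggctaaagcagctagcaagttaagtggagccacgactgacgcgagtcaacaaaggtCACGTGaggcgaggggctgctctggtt
Ddx3x: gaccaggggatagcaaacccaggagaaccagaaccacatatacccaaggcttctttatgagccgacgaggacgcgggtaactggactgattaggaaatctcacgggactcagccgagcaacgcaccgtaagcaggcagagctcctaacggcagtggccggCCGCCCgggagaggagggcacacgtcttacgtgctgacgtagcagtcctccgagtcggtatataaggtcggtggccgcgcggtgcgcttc
Eif2s3x: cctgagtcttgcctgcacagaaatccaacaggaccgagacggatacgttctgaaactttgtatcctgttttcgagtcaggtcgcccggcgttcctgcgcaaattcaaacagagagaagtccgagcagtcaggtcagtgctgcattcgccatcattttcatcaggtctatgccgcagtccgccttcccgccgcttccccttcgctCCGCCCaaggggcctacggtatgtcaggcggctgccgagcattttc
Utp14a: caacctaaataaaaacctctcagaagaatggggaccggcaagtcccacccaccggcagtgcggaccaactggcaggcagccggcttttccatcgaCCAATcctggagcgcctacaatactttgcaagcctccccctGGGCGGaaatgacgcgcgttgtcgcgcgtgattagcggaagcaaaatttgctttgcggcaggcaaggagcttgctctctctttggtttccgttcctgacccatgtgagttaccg
Each of the 4 windows held 1 GC box (GGGCGG), a motif found in 54.2% of 251 promoters of genes in the table and in 32.7% of 32851 RefSeq promoters of the same length. Kdm6a also held 1 E-box (CACGTG), which was present in 8.37% of the table's promoters and 6.02% of all. Utp14a held 1 CCAAT box (CCAAT), against 44.2% and 33.8%. The letters TATAAA and the YY1 core AANATGGC were found in none of the 4 (count 0), against 7.57% and 6.77% of the table's promoters. The windows held 15 CpG dinucleotides in Kdm6a, 22 in Ddx3x, 19 in Eif2s3x and 17 in Utp14a, all above the table's median of 11. These matches describe the sequence, and binding was not measured.

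The first question was how far the 129 share of each escape gene's reads changed when Xist was induced. The ratios of Ddx3x, Eif2s3x and Utp14a fell by less than 0.1 on average, and that of Kdm6a changed by -0.0140. The median over the 4 genes was -0.0663, beside a median over all 242 genes of -0.132. Of the 4 genes, Ddx3x, Eif2s3x and Utp14a passed the limma test for a lower ratio (3 of 4), and Kdm6a did not, where 71.5% of all genes (173 of 242) passed.

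Kdm6a had NoDox ratios of 0.547 in 2B, 0.513 in 3B, 0.796 in 4E, 0.535 in 6F, 0.520 in 11C and 0.537 in 7E. At Dox 24 h these were 0.514, 0.548, 0.793, 0.476, 0.511 and 0.520 in the same order. The ratio was lower in 5 of 6 clones and higher in 3B, and the values before and after induction overlapped. The mean change was -0.0140 ± 0.031 (SD, n = 6). It did not pass the test (limma coefficient -0.0140, SE 0.0177, adjusted p = 0.492). Without 3B the change was -0.0239 and without 6F -0.00513. Among 242 genes it had the 11th highest mean change (rank 11).

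Ddx3x began near an even ratio in the clones other than 4E, with NoDox values of 0.490 in 2B, 0.529 in 3B, 0.821 in 4E, 0.541 in 6F, 0.494 in 11C and 0.487 in 7E. After induction these were 0.416, 0.504, 0.780, 0.432, 0.409 and 0.476. The ratio was lower in 6 of 6 clones, by as little as 0.0103 in 7E and as much as 0.109 in 6F (changes of -0.0103 and -0.109). The mean change was -0.0571 ± 0.0382 (SD, n = 6), with a limma coefficient of -0.0571 (SE 0.0164, adjusted p = 0.0294). The call was lost when 2B, 3B, 4E, 11C or 7E was left out (adjusted p = 0.0969, 0.0587, 0.0588, 0.116 and 0.0565), while the change stayed between -0.0665 and -0.0468 over all 6 omissions.

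Eif2s3x had the lowest ratios of the 4 genes in NoDox in clones other than 4E, at 0.470 in 2B, 0.485 in 3B, 0.480 in 6F, 0.448 in 11C and 0.441 in 7E, beside 0.803 in 4E. After induction these were 0.410, 0.446, 0.379, 0.369 and 0.408, beside 0.644 in 4E. It was lower in each of the 6 clones, and the single largest decline of the 4 genes was its change of -0.159 in 4E. The mean change was -0.0784 ± 0.0470 (SD, n = 6), with a limma coefficient of -0.0784 (SE 0.0244, adjusted p = 0.0380). Leaving out any 1 of the 6 clones lost the call, with adjusted p between 0.0549 (without 4E) and 0.0929 (without 11C). Without 4E the mean change was -0.0623 ± 0.0283 (SD, n = 5).

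Utp14a had the highest NoDox ratio of the 4 genes in every clone, at 0.627 in 2B, 0.624 in 3B, 0.848 in 4E, 0.604 in 6F, 0.617 in 11C and 0.621 in 7E. At Dox 24 h the ratios were 0.510, 0.587, 0.812, 0.455, 0.531 and 0.593. The 129 allele thus still gave the larger share of the RNA in 5 of 6 clones after induction, with 6F below 0.5. The mean change was -0.0755 ± 0.0498 (SD, n = 6), with a limma coefficient of -0.0755 (SE 0.0174, adjusted p = 0.0150). The call was lost without 2B (adjusted p = 0.0696) or without 11C (adjusted p = 0.0511).

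**Figure D1:**
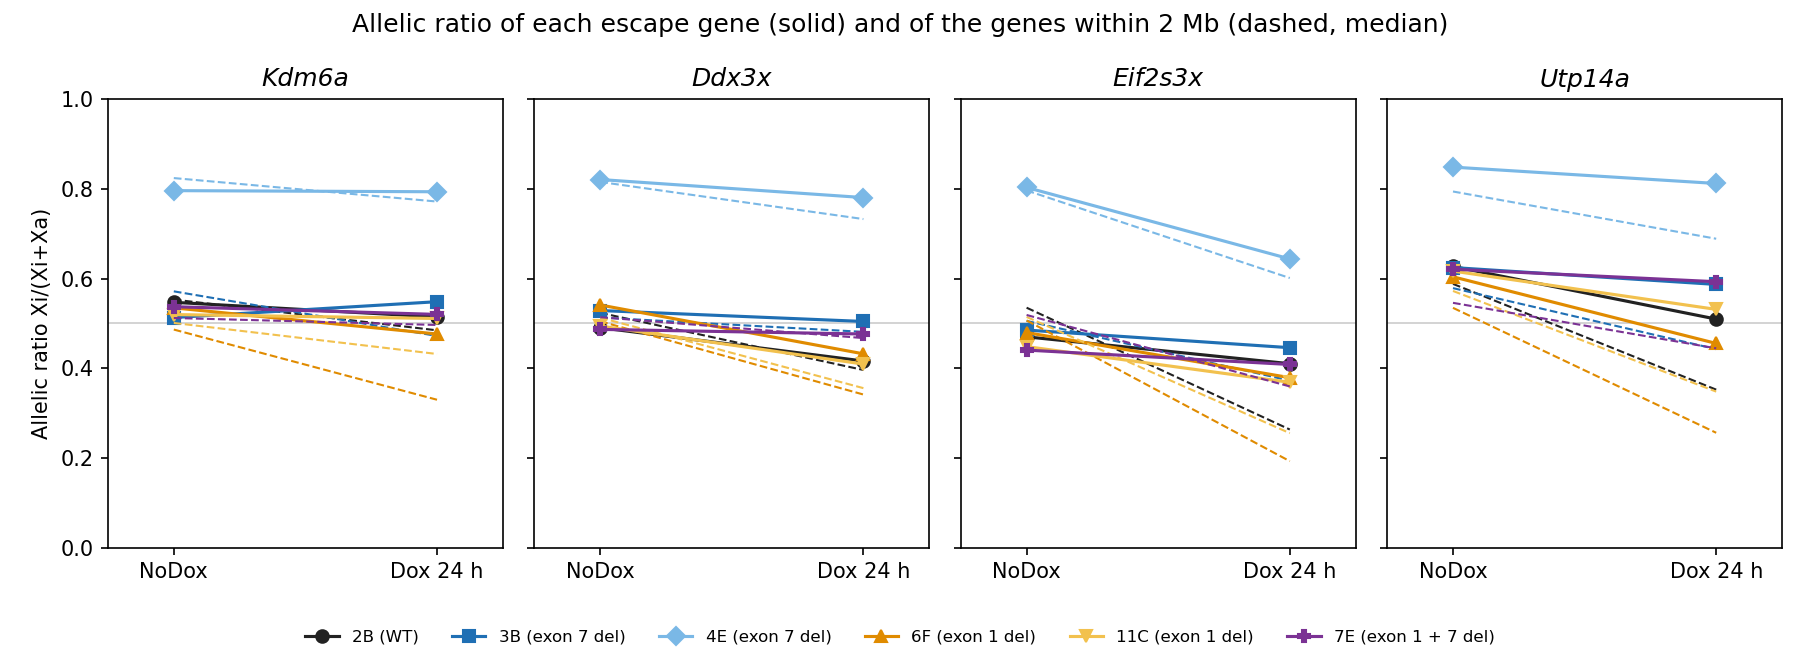
Allelic ratio Xi/(Xi + Xa) in NoDox and at Dox 24 h for each escape gene (solid lines with symbols) and the median of the genes within 2 Mb of it (dashed lines of the same colour), 1 line per clone. The dashed lines fall more steeply than the solid ones except for Kdm6a in 7E, and clone 4E lies above the other 5 throughout.

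Between the 4 genes, the change of Kdm6a was the least negative. It exceeded that of Eif2s3x by 0.0644 ± 0.0510 and that of Utp14a by 0.0615 ± 0.0318 (SD, n = 6 clones), in 6 of 6 clones each. It exceeded that of Ddx3x by 0.0431 ± 0.0281 in 5 of 6 clones. The change of Ddx3x exceeded that of Utp14a by 0.0184 ± 0.0194 in 5 of 6 clones. It exceeded that of Eif2s3x by 0.0213 ± 0.0499, in 3 of 6 clones. For Eif2s3x and Utp14a the difference was -0.00293 ± 0.0643. These 6 pairs are given as descriptions.

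A ratio can fall by fewer units from a low or a high start, so the same data were also written as the share of the 129 to Cast read ratio that was left at Dox 24 h. Kdm6a retained 95.1% ± 12.1 (SD, n = 6) of its NoDox value, Ddx3x 79.0% ± 12, Utp14a 73.1% ± 13.3 and Eif2s3x 72.3% ± 15.9. For the median gene of the table the share ran from 35.3% in 6F to 70.1% in 7E. Eif2s3x in 4E was the lowest value among the 4 genes, at 44.3%, and in the other clones this gene retained 66.2% to 87.7%. On the log2 scale of that ratio the change of Eif2s3x was -0.50 and did not pass the test (adjusted p = 0.0686), while the calls for Ddx3x and Utp14a were kept.

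The next question was whether the escape genes differ from the genes around them, which share the chromosomal region and the library. For each of them, the median change of the other measured genes within 2 Mb was subtracted, clone by clone. There were 5 such genes for Kdm6a, 8 for Ddx3x, 16 for Eif2s3x and 11 for Utp14a. The change of each of the 4 escape genes lay above this median in 6 of 6 clones, 24 of 24 values. A gene's change lay above its surroundings in all 6 clones for 10.9% of genes tested (26 of 238).

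Eif2s3x had the widest margin. Its change exceeded that of its surroundings by 0.146 in 2B, 0.111 in 3B, 0.0411 in 4E, 0.165 in 6F, 0.131 in 11C and 0.0952 in 7E. Clone 4E was the lowest, and the mean was 0.115 ± 0.0437 (SD, n = 6). This margin was the eighth highest of 238 (rank 8) and missed the limma threshold (SE 0.0196, adjusted p = 0.0555). Against the median change of all 242 genes in place of the surroundings it was 0.0573 (adjusted p = 0.114), the lowest of the 4 genes on that reference.

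For Utp14a the margin was 0.0951 in 2B, 0.0578 in 3B, 0.0688 in 4E, 0.103 in 6F, 0.110 in 11C and 0.0716 in 7E. The values were close to each other, with a mean of 0.0842 ± 0.0209 (SD, n = 6; limma SE 0.0169, adjusted p = 0.0872). Kdm6a varied more, with 0.0437 in 2B, 0.0702 in 3B, 0.0498 in 4E, 0.123 in 6F, 0.167 in 11C and 0.0212 in 7E. The 2 clones with only the exon 1 deletion were the highest, and 7E, which also lacks that region, was the lowest. The mean was 0.0792 ± 0.0553 (SD, n = 6; limma SE 0.0231, adjusted p = 0.124).

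Ddx3x had the narrowest margin, with 0.0287 in 2B, 0.0136 in 3B, 0.00920 in 4E, 0.0496 in 6F, 0.0346 in 11C and 0.0311 in 7E. Its mean of 0.0278 ± 0.0147 (SD, n = 6) ranked 75 of 238, and the limma test gave an adjusted p of 0.358 (SE 0.0169). With windows of 5 Mb it was 0.0143 (adjusted p = 0.627). None of the 4 genes therefore passed with limma across 238 genes (count 0). A higher change than the surroundings passed for 0.84% of genes (2 of 238), and 25 of 238 had it at an unadjusted p under 0.05. Eif2s3x, Utp14a and Kdm6a were among these 25 (ranks 4, 6 and 17 by p), and Ddx3x was not (rank 51). An exact permutation test that flips the sign of each of the 6 clone values (two-sided, not adjusted for the number of genes) gave p = 0.031 for each of the 4, the smallest value it can give, which 21.8% of genes (52 of 238) reached in either direction. Without 4E the margins were 0.130 for Eif2s3x, 0.0873 for Utp14a, 0.0851 for Kdm6a and 0.0315 for Ddx3x, and without 6F they were 0.105, 0.0806, 0.0704 and 0.0234.

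**Figure D2:**
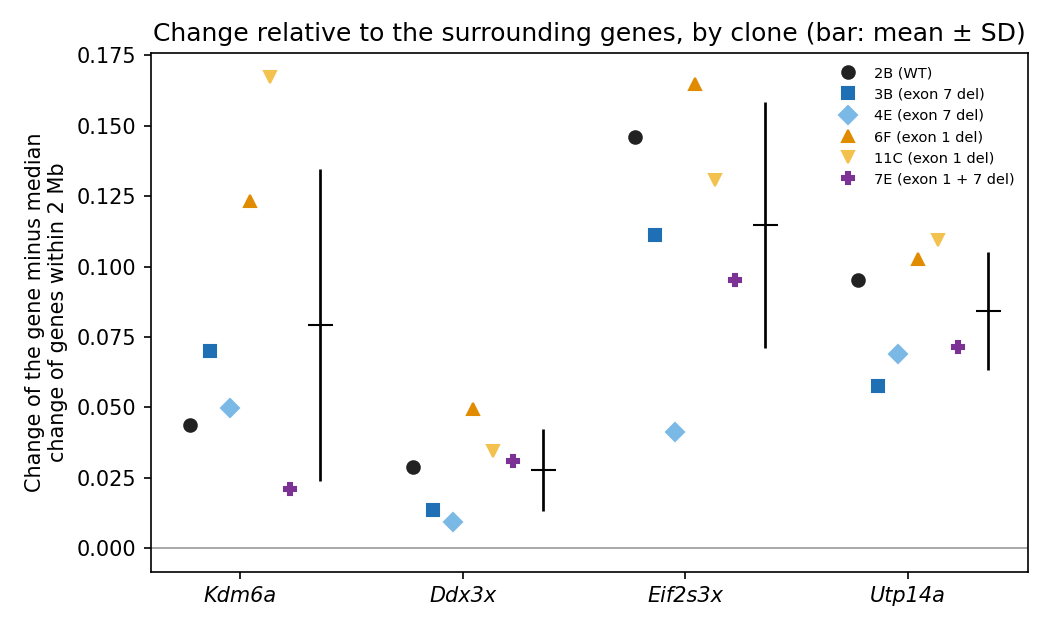
Change of each escape gene minus the median change of the genes within 2 Mb (y axis, units of allelic ratio), 1 symbol per clone and a bar for the mean ± SD of 6 clones. All 24 symbols lie above 0, from 0.00920 for Ddx3x in 4E to 0.167 for Kdm6a in 11C.

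The baseline before induction was compared with the surroundings in the same way. Kdm6a and Ddx3x lay on the level of their surroundings in NoDox, with mean differences of -4.56e-05 ± 0.0389 and -0.00362 ± 0.0272 (SD, n = 6) and values on both sides of 0. Eif2s3x was below its surroundings in 5 of 6 clones by a mean of -0.0416 ± 0.0331, and Utp14a was above in 6 of 6 by 0.0546 ± 0.0145. Neither passed the limma test (adjusted p = 0.183 and 0.0638), in which 7.56% of genes (18 of 238) were higher than their surroundings and 80 genes differed at an unadjusted p under 0.05. With windows of 5 Mb the difference of Utp14a was 0.0960 and passed (adjusted p = 0.0182).

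At Dox 24 h all 4 genes stood above their surroundings in 6 of 6 clones. Utp14a was higher by 0.159 ± 0.0276 (SD, n = 6; adjusted p = 0.00375) and Eif2s3x by 0.102 ± 0.0572 (adjusted p = 0.0122), and both passed the limma test (2 of 4), against 13% of genes (31 of 238). Kdm6a was higher by 0.0628 ± 0.0485 (adjusted p = 0.0923) and Ddx3x by 0.0407 ± 0.0298 (adjusted p = 0.159), which did not pass. With windows of 5 Mb the difference of Ddx3x was 0.00862 (adjusted p = 0.745). Eif2s3x went from the lower side of its surroundings in NoDox to the upper side at Dox 24 h in 5 of 6 clones. For example, in 2B it was 0.0649 below them before induction (-0.0649) and 0.147 above them after it. The Eif2s3x call was lost without 2B (0.0929, adjusted p = 0.0691). Against the median of all 242 genes in place of the surroundings, Eif2s3x at Dox 24 h was higher by only 0.0259 (adjusted p = 0.307), Kdm6a by 0.144 (adjusted p = 0.00261) and Ddx3x by 0.0865 (adjusted p = 0.0288).

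The genes next to each escape gene show how local these differences were. Eif2s3x lies between Zfx, which encodes a zinc finger transcription factor, and Klhl15. Zfx, 65.3 kb away, fell from a mean ratio of 0.651 to 0.488 (mean change -0.163 ± 0.0626), and Klhl15, 22.3 kb away on the other side, from 0.573 to 0.327 (-0.245 ± 0.0631). Both had a more negative change than Eif2s3x in 6 of 6 clones and both passed the limma test for a lower ratio (adjusted p = 0.00366 and 0.00219). Of the 16 genes within 2 Mb, each had a lower mean change than Eif2s3x, and the highest among them was -0.0926 ± 0.0827 in Las1l. Counted clone by clone, 84 of 96 such values were below that of Eif2s3x.

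Utp14a is flanked by Zdhhc9, a palmitoyltransferase gene at 48.2 kb, and Bcorl1, a corepressor gene at 58.9 kb. Zdhhc9 had a mean change of -0.0816 ± 0.105, close to the -0.0755 of Utp14a, and was the highest among the 11 genes. It did not pass the test for a lower ratio (adjusted p = 0.110). Bcorl1 fell by more in 6 of 6 clones (-0.184 ± 0.123, adjusted p = 0.00219). The lowest was Smarca1, a chromatin remodelling ATPase gene at 364.4 kb, at -0.459 ± 0.127. Over all clones, 61 of 66 values of the 11 genes were below that of Utp14a.

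Kdm6a lies in a region with few measured genes, and the nearest on each side are Fundc1 at 590.4 kb and Chst7 at 1780.2 kb. Efhc2, at 843.3 kb on the side of Fundc1, did not pass the limma test for a lower ratio (-0.0856 ± 0.181, adjusted p = 0.253). Fundc1, a gene for a mitochondrial outer membrane protein, had a mean change of -0.0722 ± 0.104 (adjusted p = 0.0406), and Chst7, a sulfotransferase gene, had the lowest of the 5 genes at -0.196 ± 0.124 (adjusted p = 0.0120). Maoa, the monoamine oxidase A gene, had the highest at -0.0617 ± 0.0508 (adjusted p = 0.0486). In the 5 genes, 26 of 30 values were below that of Kdm6a.

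Ddx3x stood closer to its neighbours. Usp9x, a deubiquitinase gene at 107.7 kb, fell by a mean of 0.0903 (-0.0903 ± 0.0534, adjusted p = 0.00968), and Cask, a scaffold kinase gene at 223.1 kb, by 0.0933 (-0.0933 ± 0.0612, adjusted p = 0.0127). Both had a more negative change than Ddx3x in 6 of 6 clones. Atp6ap2, which encodes an accessory protein of the vacuolar proton pump, had a less negative mean change than Ddx3x at -0.0492 ± 0.0513 (adjusted p = 0.0588), and was below it in only 2 of 6 clones. The lowest of the 8 genes was 5730405O15Rik at -0.178 ± 0.0920, and 37 of 48 values were below that of Ddx3x.

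**Figure D3:**
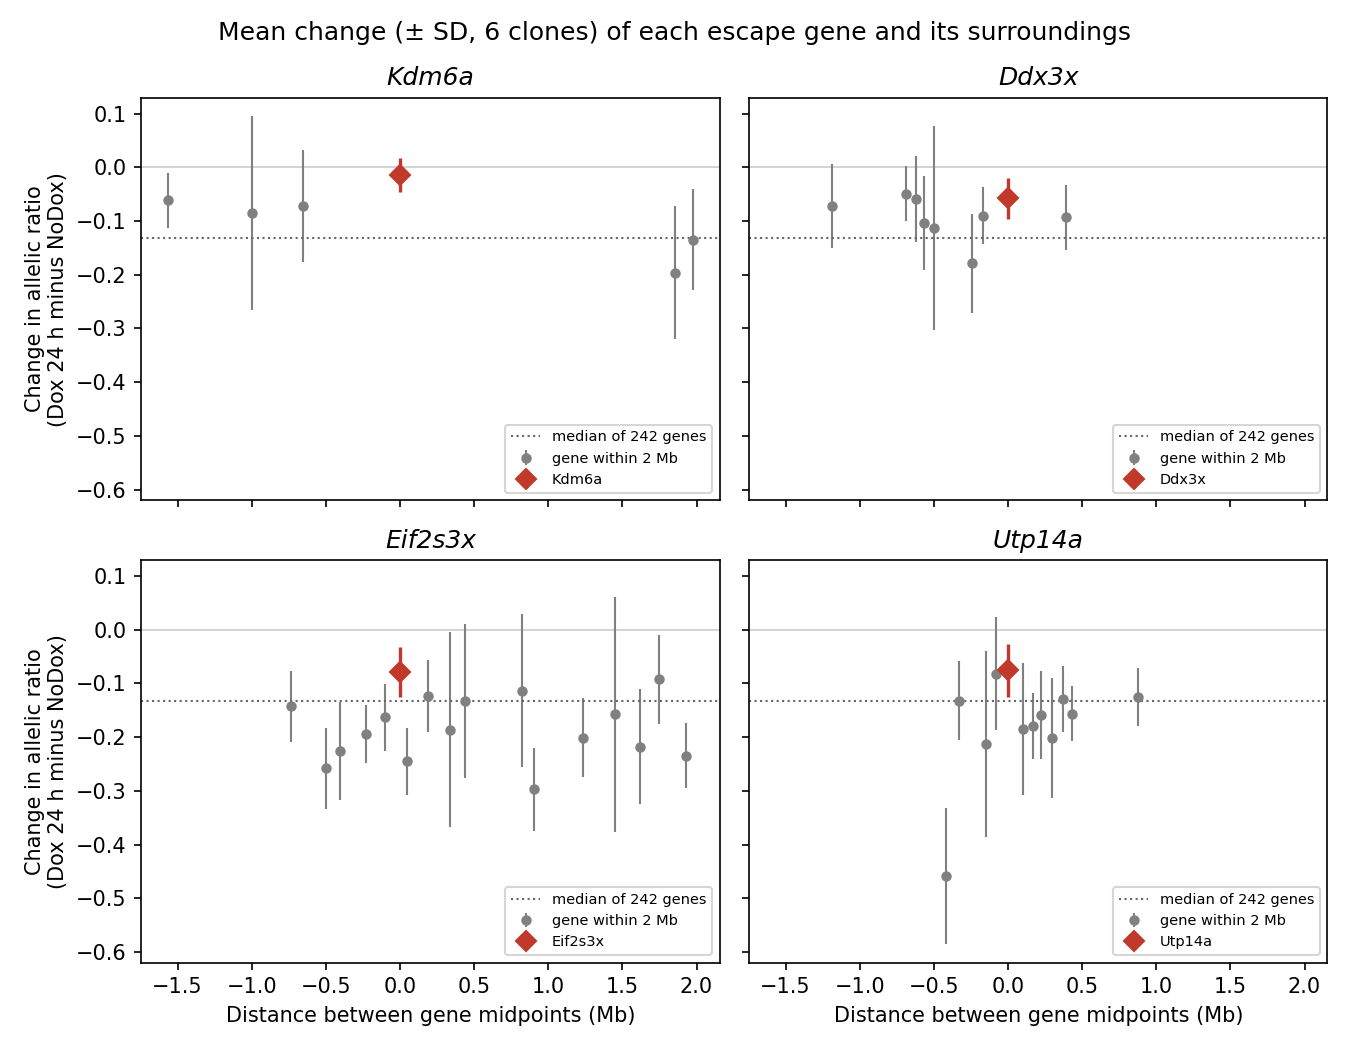
Mean change in allelic ratio (y axis, Dox 24 h minus NoDox, ± SD over 6 clones) of each escape gene (red diamond) and the genes within 2 Mb (grey), against the distance between gene midpoints in Mb. The diamond lies above every grey point for Kdm6a, Eif2s3x and Utp14a and above 7 of 8 for Ddx3x, and the dotted line marks the median of 242 genes at -0.132.

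Other genes described as escaping in the mouse were looked up from a list of 15, of which 3 were in the table. Shroom4, a gene for a cytoskeletal regulator, had a mean change of -0.0843 ± 0.0415 (SD, n = 6; adjusted p = 0.0119). 1810030O07Rik, which lies within 2 Mb of Ddx3x, had -0.0590 ± 0.0802 (adjusted p = 0.0386). Firre, a long noncoding RNA gene, had -0.266 ± 0.0764 (adjusted p = 0.00173), a larger decline than any of the 4 escape genes and rank 227 of 242. All 3 passed the limma test for a lower ratio, and none differed from the genes within 2 Mb in its change (count 0 with limma, adjusted p = 0.783 for Shroom4, 0.568 for 1810030O07Rik and 0.10 for Firre, whose difference was -0.0848).

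The genes with the most similar ratios over the 12 libraries were found by the mean absolute difference. For Kdm6a they were Rbm3 (0.0246), Tspan7 (0.0336) and Uba1 (0.0336), all further away than 2 Mb, against a median difference of 0.115 over the table. For Ddx3x they were Upf3b (0.0235), Otud5 (0.0261) and Shroom4 (0.0282), and for Eif2s3x they included Eda2r (0.0232) and Vbp1 (0.0285). For Utp14a they were Fundc1 (0.0317), 1810030O07Rik (0.0375) and Jade3 (0.0379). None of the 4 escape genes was among the nearest of another (count 0). The libraries share clones, so this likeness includes the level of 4E.

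By mean change Kdm6a was at rank 11 of 242, Ddx3x at 27, Utp14a at 47 and Eif2s3x at 49. The 5 genes with the highest mean changes in the table were other genes, with wide spreads between clones or low NoDox ratios. Timm17b changed by 0.0794 ± 0.327 (SD, n = 6), Gm10474 by 0.0386 ± 0.389 and Ndufb11 by 0.0338 ± 0.132. Frmd7 changed by 0.0261 ± 0.0390 from a NoDox ratio of 0 in each clone, and Slc25a5 by 0.0177 ± 0.0469 from a mean NoDox ratio of 0.151. A ratio that starts at 0 cannot fall, so a margin of Frmd7 over falling surroundings was fixed by its start. None of the 5 passed the test (count 0 with limma, no adjusted p below 0.292). The SD of the change was 0.031 for Kdm6a, the tenth lowest of 242 genes (rank 10), and 0.0382 for Ddx3x (rank 14). The 3 genes that stood most above their surroundings in limma were Frmd7 (0.239, adjusted p = 0.0209), Eda2r (0.153, adjusted p = 0.0259) and Yipf6 (0.119, adjusted p = 0.0545). Eif2s3x came next in this order (rank 4), and Utp14a was at rank 6.

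Deletion of the exon 7 m6A region was then compared between the 3 deleted clones (3B, 4E and 7E) and the 3 intact ones (2B, 6F and 11C). Ddx3x and Utp14a had a less negative change in every deleted clone than in any intact clone, which was also the case for 32.2% of all genes (78 of 242). Kdm6a and Eif2s3x overlapped between the arms. No exon 7 effect passed limma for any gene (0 of 242, 0%). At an unadjusted 0.05, 38 genes passed, all 38 with a higher change in the deleted clones. The exon 7 coefficient was positive for 86.4% of the 242 genes, with a median of 0.0775. The exact test of 3 clones against 3 cannot give less than p = 0.1.

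For Utp14a, the deleted clones changed by -0.0340 ± 0.00531 and the intact clones by -0.117 ± 0.0316 (SD, n = 3 each), a difference of 0.0831 (exact two-sided permutation p = 0.1; limma 0.0846, SE 0.0369, adjusted p = 0.371). Within clones of the same exon 1 state the difference was 0.0802 with exon 1 intact and 0.0891 with exon 1 deleted. For Ddx3x the means were -0.0250 ± 0.0150 and -0.0893 ± 0.0177, a difference of 0.0643 (exact p = 0.1; limma 0.0642, SE 0.0349, adjusted p = 0.414), with 0.0419 and 0.0865 within the exon 1 states. For both genes the sign was the same in either exon 1 state.

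Kdm6a changed by 0.00524 ± 0.0271 in the deleted and -0.0332 ± 0.0248 in the intact clones (SD, n = 3 each; exact p = 0.2; limma adjusted p = 0.633), with differences of 0.0490 and 0.0164 with exon 1 intact and deleted. Eif2s3x had nearly equal means of -0.0769 ± 0.0715 and -0.0800 ± 0.0203 (exact p = 1; limma adjusted p = 0.943). Within its deleted arm, 4E was at -0.159 and the other clones at -0.0393 and -0.0321. Without 4E the deleted arm was higher by 0.0443. The difference was -0.0394 among clones with exon 1 intact, which include 4E, and 0.0580 among those with exon 1 deleted.

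The margin over the surroundings had a lower mean in the exon 7 deleted clones than in the intact ones for all 4 genes, as for 51.7% of genes (123 of 238), and the arms were apart for 2 of them. The margin of Utp14a was 0.0661 ± 0.00733 in deleted and 0.102 ± 0.00726 in intact clones, and that of Eif2s3x was 0.0826 ± 0.0368 and 0.147 ± 0.0170, without overlap between the arms for either gene (exact p = 0.1 each), as for 5.46% of all genes (13 of 238). For Kdm6a it was 0.0470 ± 0.0246 and 0.111 ± 0.0627 (exact p = 0.3) and for Ddx3x 0.0180 ± 0.0116 and 0.0376 ± 0.0108 (exact p = 0.2), with overlap. The median change of the surroundings was -0.10 ± 0.00498 in deleted and -0.219 ± 0.0287 in intact clones around Utp14a, and -0.159 ± 0.0374 and -0.227 ± 0.0331 around Eif2s3x. In limma none of these differences in margin passed (count 0 of 238 genes, 4 at an unadjusted p under 0.05, adjusted p = 0.980 for each of the 4).

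**Figure D4:**
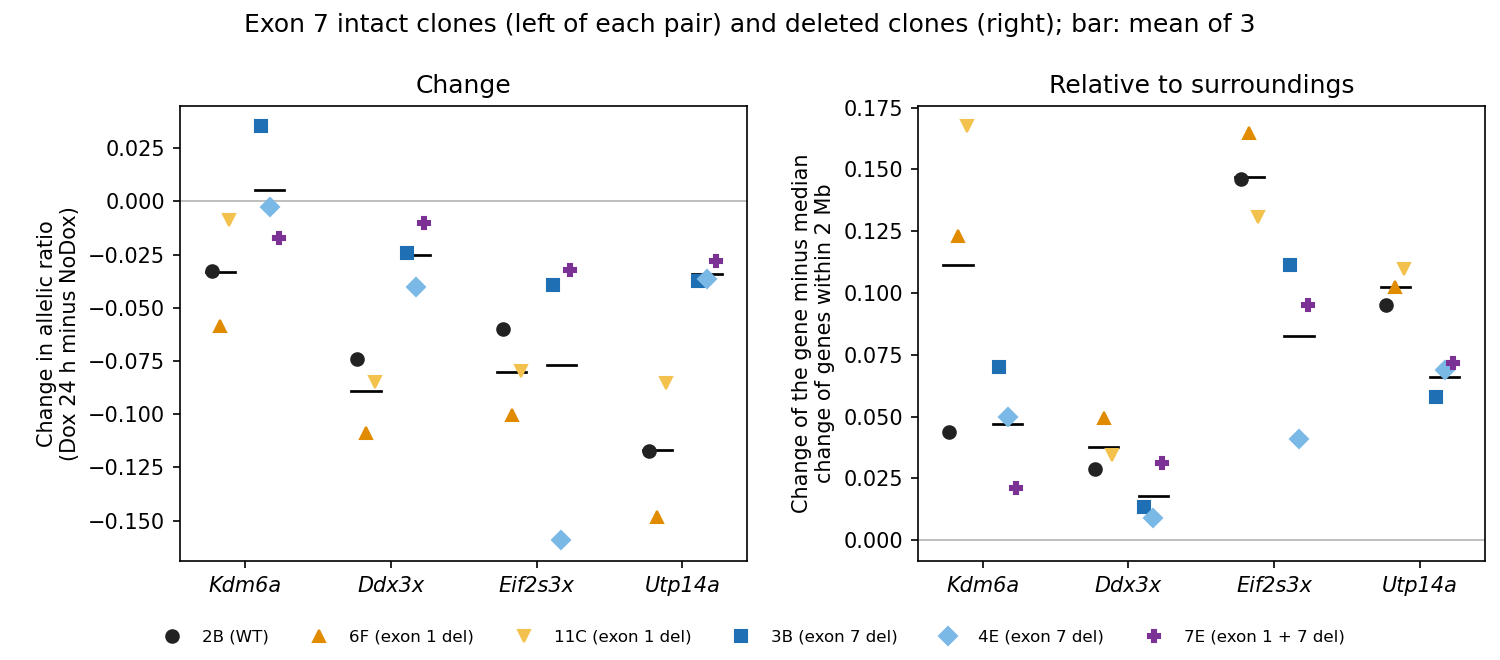
Change in allelic ratio (left, Dox 24 h minus NoDox) and change minus the median change of genes within 2 Mb (right) for the 3 exon 7 intact and the 3 exon 7 deleted clones of each gene, with a bar at each mean. On the left the arms separate for Ddx3x and Utp14a, and on the right for Eif2s3x and Utp14a, where the deleted clones are lower.

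Deletion of the exon 1 m6A region was compared between 6F, 11C and 7E and the 3 clones with exon 1 intact (2B, 3B and 4E), and neither direction stood out. Exon 7 was not balanced between these arms, since 3B, 4E and 7E lack its m6A region and 2B, 6F and 11C do not. The difference in change, deleted minus intact, was -0.0281 for Kdm6a (exact two-sided permutation p = 0.4), -0.0217 for Ddx3x (exact p = 0.6), 0.0154 for Eif2s3x (exact p = 0.8) and -0.0235 for Utp14a (exact p = 0.7). The arms overlapped for all 4 genes. The margin of Ddx3x over its surroundings was 0.0384 ± 0.00981 in deleted and 0.0172 ± 0.0102 in intact clones (SD, n = 3 each; exact p = 0.1), without overlap, as for 5.04% of genes (12 of 238), and the margins of the other 3 overlapped. In the limma fit, which also holds the exon 7 term, the exon 1 coefficients were -0.0172 for Kdm6a and -0.00029 for Ddx3x. They were 0.0185 for Eif2s3x and 0.00473 for Utp14a. With limma 0 of 242 genes passed (0%), 5 had an unadjusted p under 0.05, and the adjusted p of the 4 genes was 0.985 or more. Clones with only the exon 1 deletion differed from 2B by -0.000925 for Kdm6a, -0.0226 for Ddx3x, -0.0302 for Eif2s3x and 0.000302 for Utp14a.

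The double deletion clone 7E was set beside the exon 7 deletion clones without a test, since there was 1 such clone. Kdm6a changed by -0.0171 in 7E and by 0.0164 ± 0.0268 (SD, n = 2) in 3B and 4E. Ddx3x changed by -0.0103 against -0.0323 ± 0.0112 and Utp14a by -0.0279 against -0.0370 ± 0.000809. For Eif2s3x the values were -0.0321 against -0.0993 ± 0.0849, where 4E set the low mean and 3B was at -0.0393. The changes of Ddx3x, Eif2s3x and Utp14a in 7E were the smallest of the 6 clones for each gene.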

How the data were processed

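The data were allelic ratios from ChrRNA-seq of 12 libraries. The deposited values are fractions, Xi/(Xi + Xa) per gene and library, made by the authors. Per the methods of the study, ribosomal reads were removed with bowtie2, read pairs were aligned with STAR to mm10 in which positions that differ between the strains were masked, SNPsplit assigned unique alignments to alleles, and allelic reads were counted by strand over whole transcripts with featureCounts. Genes needed a minimum of allele-informative reads. The table gives no counts, so the depth behind each ratio is unknown and no interval or limit based on counts is given. A further 10 columns of per-sample values match no sample title and were not used here. Gene starts are printed after adding 1.

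Change was Dox 24 h minus NoDox within a clone, and the clone names in the titles pair the libraries of one cell line. The correlation over genes of the paired libraries' deviations from the treatment means ran from -0.0549 in 6F to 0.516 in 4E. For every gene except Xist, limma 3.58.1 (R 4.3.3) fitted the change with the mean over clones and centred exon 7 and exon 1 terms, and Benjamini-Hochberg adjustment over 242 genes at 0.05. Fits relative to surroundings used the 238 genes with at least 3 others within 2 Mb and subtracted their median. Genes were the 4 named ones, the nearest measured gene on each side, the highest and lowest within 2 Mb, the 3 most alike, a list of escape genes, and those with the highest change or margin, and 2 genes this rule names are not reported here. The share of the 129 to Cast ratio retained was the Dox 24 h odds over the NoDox odds, with ratios held between 0.01 and 0.99. The scripts were tested on simulated data. Python 3.11.15 (numpy 2.4.6, pandas 2.3.3) and matplotlib 3.10.9 were used otherwise. The 4 genes and the lists were chosen with earlier results of these data known.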

Additional observations from a re-analysis of the deposited data

Results flagged for a closer look

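In 24 sets of 6 clones (the ratio in NoDox and at Dox 24 h, the change, and these 3 relative to the surroundings, for each of the 4 genes), the highest or lowest clone was compared with the rest by Dixon's gap ratio, at its 95% critical value. Clone 4E stood apart as the highest in 7 sets, where chance alone flags about 1 in 20. In NoDox it was at 0.796 for Kdm6a (other clones 0.513 to 0.547), 0.821 for Ddx3x (0.487 to 0.541), 0.803 for Eif2s3x (0.441 to 0.485) and 0.848 for Utp14a (0.604 to 0.627). At Dox 24 h it was at 0.793 for Kdm6a (0.476 to 0.548), 0.780 for Ddx3x (0.409 to 0.504) and 0.644 for Eif2s3x (0.369 to 0.446). The median of all 242 genes in the NoDox library of 4E was 0.796, so the level was shared by the chromosome, and no set of changes or of values relative to the surroundings was flagged.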

How the results depend on the processing

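All 4 margins over the surroundings in the change kept their direction under the 63 alternatives that gave a value, while their side of the threshold moved in 8. Against the median of all 242 genes, which replaces the region by the chromosome, the margins passed for Kdm6a (0.122), Ddx3x (0.0789) and Utp14a (0.0606), while that of Eif2s3x was 0.0573 (adjusted p = 0.114). With windows of 5 Mb Eif2s3x (0.120) and Utp14a (0.108) passed and Ddx3x was at 0.0143, and Eif2s3x also among genes with a NoDox ratio from 0.2 to 0.8 (0.115, adjusted p = 0.0495). The table-wide counts of higher and lower margins (2 and 3) were 0 and 1 on the log2 odds scale, 7 higher with windows of 5 Mb, 1 higher among genes with no ratio of 0 or 1, and 17 and 28 against all genes. The cause was not tested.

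The libraries are paired by clone, and without the replicate block the lower ratios of Ddx3x (-0.0571, adjusted p = 0.449), Eif2s3x (-0.0784, adjusted p = 0.286) and Utp14a (-0.0755, adjusted p = 0.252) lost their calls and 74 genes of 242 were called lower, against 173. The margins then passed for Eif2s3x (0.143) and Utp14a (0.105), with 12 genes higher and 7 lower, in a fit that took the median of the surroundings in each library. On the log2 odds scale the lower ratio of Eif2s3x was -0.50 and no longer passed.

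For the level in NoDox, Kdm6a (0.0148) and Ddx3x (0.000241) turned positive against the median of all genes, and Utp14a passed with that reference (0.0971) and with windows of 5 Mb (0.0960). At Dox 24 h, Kdm6a passed with windows of 5 Mb (0.0819) and against all genes (0.144), Ddx3x passed against all genes (0.0865) but was at 0.00862 with windows of 5 Mb (adjusted p = 0.745), and Eif2s3x no longer did (0.0259). Against all genes 48 were higher and 53 lower. On the log2 odds scale the exon 7 effect of Eif2s3x was -0.00218 and the exon 1 effect of Ddx3x 0.0315, each the reverse of a value near 0.

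Leaving out each clone in turn gave changes of -0.0239 to -0.00513 for Kdm6a, -0.0665 to -0.0468 for Ddx3x, -0.0877 to -0.0623 for Eif2s3x and -0.0850 to -0.0609 for Utp14a, with 138 to 166 genes called lower and 0 to 1 higher. Each such fit has fewer clones. Table-wide margins in the change were then 0 higher and 0 lower in each omission. In NoDox, Kdm6a ranged from -0.00973 to 0.0116 and Ddx3x from -0.0116 to 0.00228, with 6 to 24 genes higher and 11 to 26 lower. At Dox 24 h Eif2s3x ranged from 0.0850 to 0.114, with 20 to 34 genes higher and 23 to 42 lower. The exon 7 effect ranged from -0.0394 to 0.0580 for Eif2s3x, and the exon 1 effect from -0.0226 to 0.0220 for Ddx3x, -0.0302 to 0.0672 for Eif2s3x and -0.00816 to 0.0189 for Utp14a. The depth behind each ratio is unknown, so how far read counts limit a single ratio cannot be stated.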
